A study of Mus musculus with 13 samples.

Results

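The heme genes measured here are 9 enzymes that build or break down heme, the iron-containing ring carried by hemoglobin, cytochromes and catalase. Hmox1 (heme oxygenase 1) opens the ring and frees its iron, and the biliverdin reductase Blvra turns the biliverdin that it leaves into bilirubin. Blvrb is a second reductase that also reduces flavins. Alas1 catalyses the first and rate-limiting step of heme synthesis, Alad, Urod, Cpox and Ppox carry out later steps, and Fech (ferrochelatase) inserts the iron. They were taken by symbol from a table of 35013 genes, 3 of breakdown and 6 of synthesis, and all 9 passed the filter on low counts that left 16468 genes for testing. In the proximal tubule, the segment that recovers filtered proteins through megalin, heme arrives with filtered proteins and is also made for mitochondrial cytochromes. Synthesis starts and ends in mitochondria, Alas1 is lowered by heme itself, and Hmox1 is induced when heme displaces the repressor BACH1 and NRF2 binds in its place.

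The libraries came from kidneys of female C57Bl6 mice and held RNA tagged in cells that express megalin, the receptor encoded by Lrp2. In all groups a tamoxifen-inducible Cre under the megalin promoter (Megalin3'Cre-Ert) switched on UPRT from 1 Uprt flox/+ allele, and this enzyme lets 4-thiouracil enter RNA made during a 4-h window, after which the tagged RNA was captured from whole kidney and selected for poly-A. The 4 libraries labelled Spns1 KO were from mice with Spns1 flox/flox, in which the same Cre removes exon 3 of Spns1, a lysosomal membrane protein. The 5 WT control libraries and the 4 Iron Overload libraries (FeO below) are labelled Spns1 WT and were, by the study's methods, Spns1 flox/+, so that the control mice also carried the Cre, tamoxifen and 1 floxed allele. FeO mice had received 12 mg of iron as iron sucrose on each of 3 days and were killed 1 week after. The mice's age and the pooling of animals were not given in the sources used here, so p-values measure the spread between these libraries. The comparisons ask what happened to heme enzyme RNA in a genetic and in an injected model of tubular iron overload.

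Library totals ran from 23068023 to 71296474 estimated counts, and the 9 genes had between 103 and 35211 counts in a library. Spns1 RNA did not separate the groups (36.6 to 59.0 CPM, counts scaled to a common library size, in the libraries labelled Spns1 KO, 39.2 to 62.9 in WT, log2 fold change -0.31 ± 0.18 SE, edgeR adjusted p = 0.225), and a count over the whole gene cannot check the loss of a single exon. Libraries 2 and 4 labelled Spns1 KO, at 44.5 and 59.0, lay within the WT range. The heme genes of library 4 often did so too, so values without library 4 are given where a call changes. Proximal tubule markers were detected in all libraries. Slc34a1, the phosphate transporter, was at 453 to 3298 CPM. Some others of the list were far lower in FeO library 1, while Slc27a2 (704 CPM) and Aqp1 (491 CPM) stood above Slc34a1 there. The sum over 10 markers was 8011 to 9663 in Spns1 KO, 4315 to 5976 in WT and 2733 to 6744 in FeO. Its lowest value was in FeO library 1. Markers of the loop and distal segments were also high (summed level 1908 to 5304 over all libraries), so the captured RNA was not from proximal tubule alone. Fewer tagged cells and less RNA per cell cannot be told apart in such bulk libraries.

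Levels below are CPM with TMM scaling between libraries, and a gene was called when its adjusted p was under 0.05 and its log2 fold change beyond 0.5. Compared per kilobase of the longest annotated coding transcript, WT levels were highest for Hmox1 (61.8 ± 61.1 CPM per kb, SD, n = 5) and Alas1 (55.4 ± 12.4), whose libraries overlapped. Every WT library of Alas1 lay above every one of Fech (17.1 ± 1.58 CPM per kb), the next in order. Ppox (16.7 ± 1.22), Alad (15.4 ± 3.17), Cpox (15.2 ± 3.12), Blvra (13.6 ± 1.64) and Urod (11.7 ± 1.63) followed, each overlapping its neighbour in this order. Blvrb was lowest at 4.69 ± 0.845 CPM per kb, with all its WT libraries below those of Urod. By mean level per length, the first enzyme of each arm stood above the enzymes that follow it.

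Against WT, 4 of the 9 heme genes rose in Spns1 KO (Blvra, Alad, Urod and Ppox) and 4 rose in FeO (Blvra, Blvrb, Alad and Urod). The increases were between 1.56-fold and 2.10-fold. None fell by edgeR in either model, and the enzymes at the entry of the arms, Hmox1 and Alas1, were not called in any comparison. Among all genes tested, 14.0% were called higher in Spns1 KO and 7.55% lower, whereas FeO had 22.4% higher and 19.7% lower. Every library lay above every WT library for 13.1% of all genes in Spns1 KO and 16.9% in FeO. Every library lay below WT for 9.38% and 16.4%. Of the 9 members, 3 in Spns1 KO and 4 in FeO lay wholly above WT, and 0 wholly below. Over the 9 members the median log2 fold change against WT was 0.72 for Spns1 KO and 0.73 for FeO, against -0.05 and -0.01 over all genes tested. DESeq2 called 5 members up in Spns1 KO and 4 in FeO, and limma-voom called 3 up in each. At an unadjusted p under 0.05 no member fell in Spns1 KO and 1, Fech, fell in FeO, while DESeq2 and limma-voom called none down in either. Both models were set against the same 5 WT libraries, so the comparisons are not independent. With the trend of fold change on transcript length and GC content removed, 2 members passed the limits in each model, Urod and Fech in Spns1 KO and Blvra and Urod in FeO. Fech was not called without that correction, and Blvra, Alad and Ppox in Spns1 KO and Blvrb and Alad in FeO lost their calls.

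**Figure D1:**
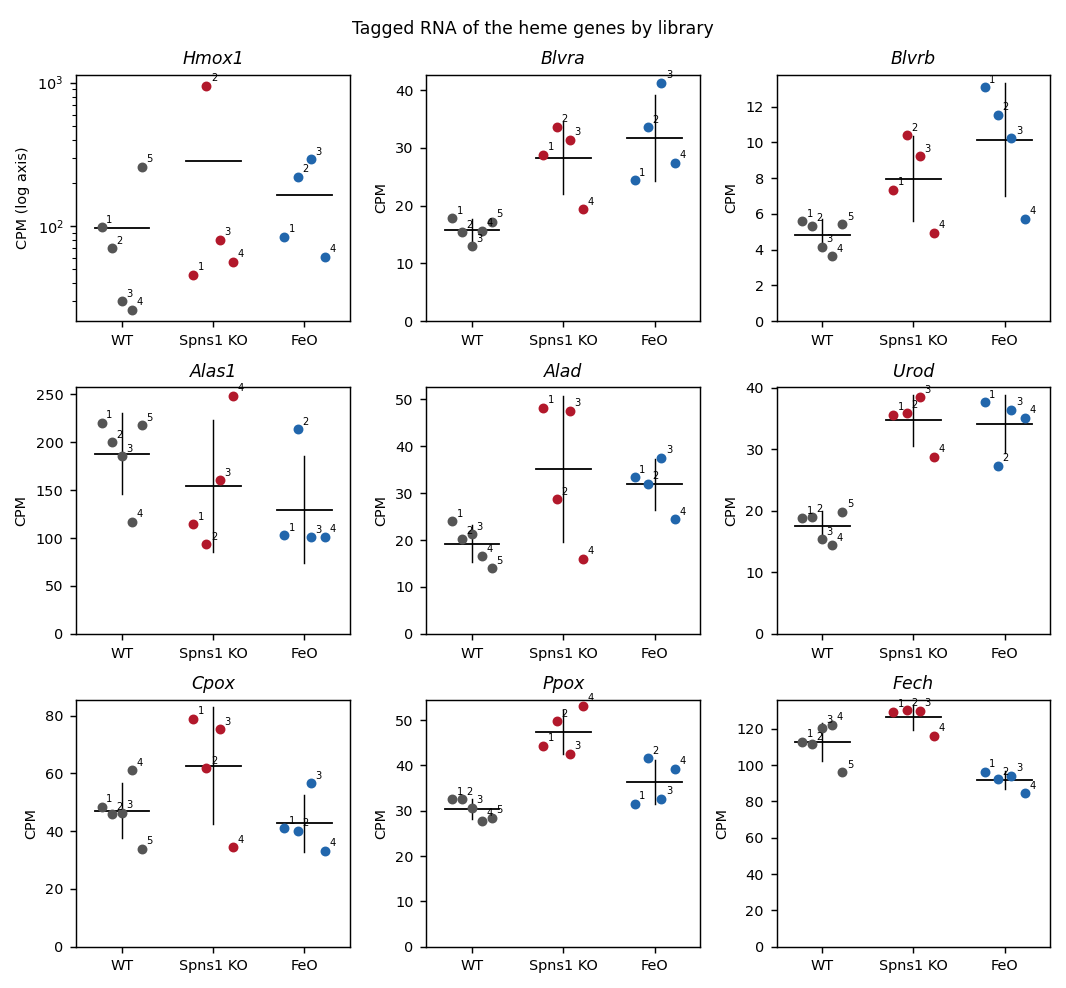
CPM of the 9 heme genes in each of 13 libraries (points, numbered by library), with group means as horizontal bars and SD as vertical lines, except for Hmox1, which is on a log axis without SD. All Urod points of Spns1 KO and FeO lie above those of WT, and the Hmox1 point of Spns1 KO library 2 stands at 952.

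Hmox1, on the plus strand of chromosome 8 (chr8:75093621-75100589, GRCm38), varied more between libraries of a group than any other of the 9 genes. In Spns1 KO libraries 1 to 4 it had 46.1, 952, 80.2 and 56.8 CPM. WT libraries 1 to 5 had 98.4, 70.4, 30.0, 26.2 and 260.0 CPM, a range of 9.93-fold between controls without iron loading. FeO libraries 1 to 4 had 84.7, 222, 294 and 61.1 CPM. The groups overlapped throughout, with 1 very high library in Spns1 KO, 1 high library in WT and 2 in FeO. Against WT this gave a log2 fold change of 1.55 ± 0.87 (SE) for Spns1 KO (adjusted p = 0.206) and 0.77 ± 0.86 for FeO (adjusted p = 0.479). Its WT coefficient of variation, 98.9%, was above that of 99.9% of the 12208 genes averaging 100 counts or more, whereas those of the other 8 members were between 7.34% and 22.4%. Spns1 KO library 2 alone set the sign of the first comparison. Without it the log2 fold change was -0.67 (adjusted p = 0.526), and the other 3 libraries averaged 61.0 ± 17.5 CPM (SD).

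That library was 3.24-fold above the highest other Hmox1 value and 15.6-fold above the mean of the other Spns1 KO libraries. Among 12208 genes ranked by the log2 gap between library 2 and the highest other Spns1 KO library, Hmox1 was number 2 with a gap of 3.57, just after Angptl7, a secreted angiopoietin-like protein. Hbb-bs, a beta globin, was also high there, at 95.7 CPM against 17.8 to 40.6 in the other 3. Summed erythroid markers were 203 CPM in that library and 59.7 to 116 in the other Spns1 KO libraries. Summed macrophage markers were 68.5 CPM there, the lowest of the 4. The part of either in the Hmox1 value was not tested.

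Blvra, the main adult biliverdin reductase (chr2:127070665-127097084), rose in both models. It measured 28.8, 33.6, 31.4 and 19.4 CPM in Spns1 KO libraries 1 to 4 and 17.8, 15.4, 12.9, 15.7 and 17.2 CPM in WT libraries 1 to 5. FeO libraries 1 to 4 measured 24.4, 33.5, 41.3 and 27.4 CPM. No library of either model overlapped WT, and Spns1 KO library 4 came nearest. Blvra was higher by 0.84 ± 0.19 (log2 scale) with Spns1 KO (adjusted p = 0.00598) and by 1.00 ± 0.19 with iron (adjusted p = 0.001). No single library decided these calls. After removal of the trend on length and GC, the increase was 0.45 in Spns1 KO (adjusted p = 0.0575, no longer called) and 0.53 in FeO (adjusted p = 0.0172, still called).

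Blvrb (chr7:27447978-27466144), a second reductase that also reduces flavins and is abundant in red cells, rose in FeO. Spns1 KO libraries 1 to 4 had 7.35, 10.4, 9.22 and 4.93 CPM, WT libraries 5.58, 5.33, 4.16, 3.64 and 5.40 CPM, and FeO libraries 13.1, 11.5, 10.2 and 5.73 CPM. Every FeO library was above every WT library, the last by little, while Spns1 KO library 4 fell among the controls. On the log2 scale the difference was 1.07 ± 0.26 in FeO (adjusted p = 0.00423) and 0.72 ± 0.26 in Spns1 KO (adjusted p = 0.0534, not called). Without Spns1 KO library 4, the latter was 0.90 with an adjusted p of 0.0118. DESeq2, the fit on 2 groups only and the replicate block also called Blvrb up in Spns1 KO. So did the fits without FeO library 1 or 4. Removal of the length and GC trend brought the FeO value to 0.57 (adjusted p = 0.0615) and that of Spns1 KO to 0.18 (adjusted p = 0.619). Erythroid sums were 59.7 to 203 CPM in Spns1 KO, 21.3 to 43.8 in WT and 56.0 to 261 in FeO, and over the 4 Spns1 KO libraries (97.5, 203, 116 and 59.7 CPM for 1 to 4) they were in the same order as Blvrb. WT and FeO libraries did not share that order, and FeO library 4, with the highest erythroid sum, had the lowest Blvrb of its group. The part of red cell RNA in Blvrb was not tested.

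Alas1, 5-aminolevulinate synthase of non-erythroid cells (chr9:106233455-106248654, minus strand), was the most abundant synthesis enzyme per length and did not pass the test. Spns1 KO libraries 1 to 4 had 114, 93.6, 160.2 and 249 CPM. WT libraries 1 to 5 had 221, 200.1, 186, 117 and 218 CPM. FeO libraries 1 to 4 had 103, 214, 101 and 102 CPM. Within FeO 3 libraries sat together below all WT libraries and 1 lay among them, and Spns1 KO library 4 was above every other library. Log2 fold changes of -0.29 ± 0.30 for Spns1 KO (adjusted p = 0.506) and -0.54 ± 0.30 for FeO (adjusted p = 0.157) followed. Without FeO library 2, the latter was -0.87 with an adjusted p of 0.0228 and passed both limits. Of the 31-base words of Alas1 transcripts, 6.4% are shared with 4930500F10Rik, a gene that overlaps it on the opposite strand.

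Alad (chr4:62509169-62519918, minus strand), aminolevulinate dehydratase, which joins a pair of aminolevulinate molecules to porphobilinogen, rose in both models. Spns1 KO libraries 1 to 4 had 48.2, 28.7, 47.6 and 16.02 CPM, a range wider than in either other group. WT libraries 1 to 5 had 24.0, 20.3, 21.2, 16.6 and 14.0 CPM, and FeO libraries 33.4, 32.1, 37.6 and 24.4 CPM. All FeO libraries were above all WT libraries, whereas Spns1 KO library 4 lay inside the WT range. Its increase was 0.87 ± 0.27 (log2) under Spns1 KO (adjusted p = 0.0297) and 0.73 ± 0.27 under iron loading (adjusted p = 0.0374). These calls were the least steady of the set. In Spns1 KO the call was lost without any of 5 libraries, namely Spns1 KO 1 or 3 and WT 2, 4 or 5, with adjusted p-values up to 0.121. In FeO it was lost without WT 2, 4 or 5 or FeO 1 or 3, up to 0.0983. After removal of the length and GC trend the values were 0.35 (adjusted p = 0.399) and 0.26 (adjusted p = 0.476).

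Urod, uroporphyrinogen decarboxylase (chr4:116989965-116994413, minus strand), showed the clearest increase. Its levels were 35.6, 35.9, 38.5 and 28.8 CPM in Spns1 KO libraries 1 to 4, and 37.6, 27.3, 36.4 and 35.1 CPM in FeO libraries 1 to 4. The 5 WT libraries had 18.8, 19.1, 15.4, 14.4 and 19.8 CPM. No library of either model came down to the WT range. Urod rose by 0.99 ± 0.15 on the log2 scale in Spns1 KO (adjusted p = 0.000621) and by 0.96 ± 0.15 in FeO (adjusted p = 0.000494). It was the single member that kept a call in both models after the length and GC correction, at 0.66 (adjusted p = 0.0026) and 0.56 (adjusted p = 0.00385).

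Cpox, coproporphyrinogen oxidase of the mitochondrial intermembrane space (chr16:58670292-58717636), was not called. Spns1 KO libraries 1 to 4 had 78.9, 61.8, 75.3 and 34.4 CPM, WT libraries 48.5, 45.9, 46.4, 61.1 and 33.9 CPM, and FeO libraries 41.1, 40.2, 56.6 and 33.2 CPM. Library 4 labelled Spns1 KO was near the lowest of all 13, and the other 3 of its group were the highest. Spns1 KO stood 0.41 ± 0.23 above WT on the log2 scale (adjusted p = 0.208), and FeO was at -0.14 ± 0.23 (adjusted p = 0.633). Without Spns1 KO library 4 the first was 0.61 with an adjusted p of 0.0231.

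Ppox, protoporphyrinogen oxidase, which makes the protoporphyrin that receives iron (chr1:171275990-171281186, minus strand), rose in Spns1 KO. It had 44.3, 49.7, 42.5 and 53.1 CPM in Spns1 KO libraries 1 to 4, 32.5, 32.5, 30.7, 27.8 and 28.4 CPM in WT libraries 1 to 5, and 31.6, 41.6, 32.7 and 39.2 CPM in FeO libraries 1 to 4. Spns1 KO libraries were above all others, library 4 being the highest of them, and FeO libraries 2 and 4 exceeded WT, library 3 did so narrowly and library 1 did not. This amounted to a log2 fold change of 0.64 ± 0.13 for Spns1 KO (adjusted p = 0.00332), against 0.25 ± 0.13 for FeO (adjusted p = 0.12). Removal of the length and GC trend left 0.36 in Spns1 KO (adjusted p = 0.0631) and turned the FeO value to -0.06. Of its 31-base words, 16.2% are also in B4galt3, which overlaps it on the opposite strand, so its estimated counts are less certain than those of the other members.

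Fech, ferrochelatase of the inner mitochondrial membrane, on chromosome 18, was the steadiest of the set across libraries. Spns1 KO libraries 1 to 4 had 129, 130.3, 129.8 and 116 CPM, WT libraries 1 to 5 had 113, 112, 121, 122 and 96.0 CPM, and FeO libraries 1 to 4 had 96.5, 92.1, 94.2 and 84.5 CPM. WT libraries lay between the iron models and overlapped both, since Spns1 KO library 4 fell in their range and FeO library 1 was just above the lowest of them. Relative to WT, Fech stood at 0.17 ± 0.12 (log2) for Spns1 KO (adjusted p = 0.335) and -0.29 ± 0.12 for FeO (adjusted p = 0.0615). Its direction in FeO turned after the length and GC correction, where it was 0.22 (adjusted p = 0.155), and in Spns1 KO 0.51 (adjusted p = 0.0109), which passed both limits.

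**Figure D2:**
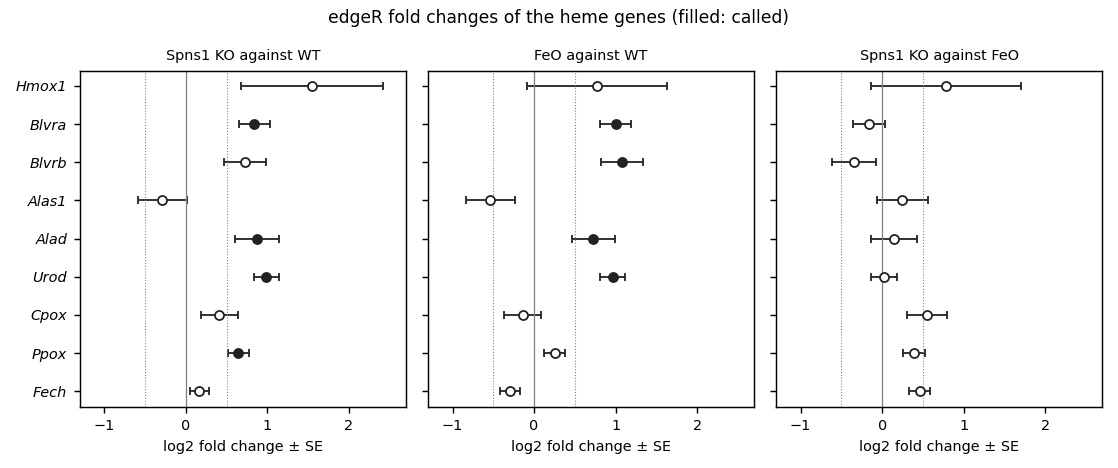
Log2 fold changes with standard errors from the edgeR fit on all 13 libraries for the 9 heme genes in 3 comparisons; filled points were called, and dotted lines mark the limit of 0.5. Hmox1 has the widest errors, and no gene was called between Spns1 KO and FeO.

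Set directly against each other, Spns1 KO and FeO differed in none of the 9 members by the call rule (edgeR), where 6.76% of all genes were called higher and 8.1% lower in Spns1 KO. At an unadjusted p under 0.05, Cpox, Ppox and Fech were higher in Spns1 KO and none was lower, and neither DESeq2 nor limma-voom called a member. Fech had an adjusted p of 0.0283 with a log2 fold change of 0.46 ± 0.13, under the limit of 0.5, and its libraries did not overlap (116 to 130.3 CPM in Spns1 KO, 84.5 to 96.5 in FeO). Ppox was 0.39 ± 0.14 higher in Spns1 KO on the log2 scale (adjusted p = 0.067), also without overlap. Of all genes tested, 8.25% had every Spns1 KO library above every FeO library. Cpox was 0.55 ± 0.24 higher (adjusted p = 0.13). Without Spns1 KO library 4, Cpox (0.75, adjusted p = 0.0307) and Fech (0.50, adjusted p = 0.0282) passed both limits. The reductases went the other way without passing, Blvra by -0.16 ± 0.20 and Blvrb by -0.35 ± 0.27 on the log2 scale, and Urod was level at 0.02 ± 0.16.

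**Figure D3:**
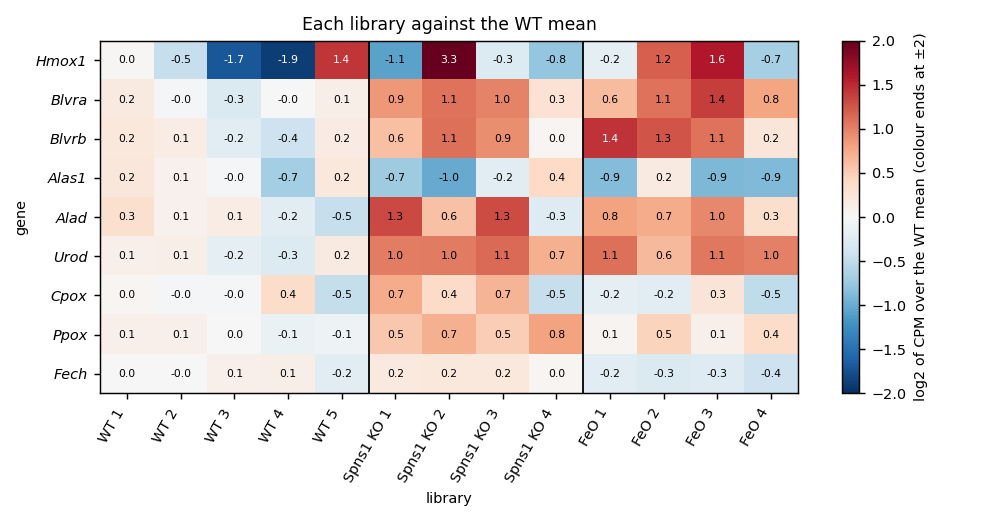
Log2 ratio of each library's CPM to the WT mean for the 9 heme genes (rows) in 13 libraries (columns; vertical lines part the groups, and colour ends at 2 in either direction). Blvra, Alad and Urod are above 0 in 7 or 8 of the 8 libraries of the iron models, and Fech is below 0 in all 4 FeO libraries.

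The rising members were the shorter ones. Blvra, Blvrb, Alad, Urod and Ppox have coding transcripts of 1028 to 1821 bases, while Cpox, Alas1 and Fech, not called in either model, have 3097, 3399 and 6571 bases. Hmox1, at 1569 bases, is short and was not called. Fold changes over all genes moved with transcript length and GC content, and the fit that removes this trend kept Urod and added Fech in Spns1 KO and kept Blvra and Urod in FeO. Whether the trend is technical was not tested.

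**Figure D4:**
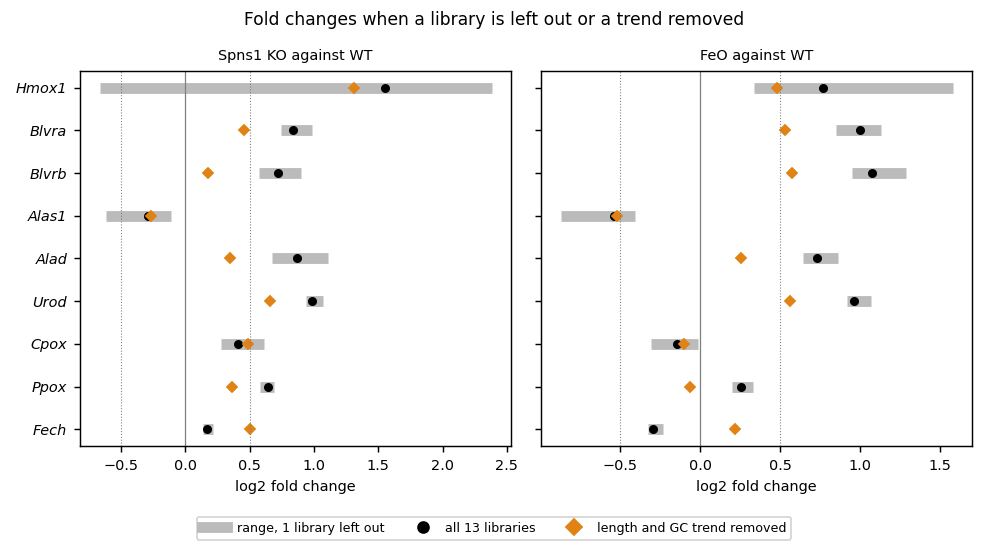
Log2 fold changes against WT of the 9 heme genes with all 13 libraries (black points), with the length and GC trend removed (orange diamonds), and the range when any 1 library is left out (grey bars). Hmox1 in Spns1 KO spans -0.67 to 2.38, and the short genes move toward 0 without the trend while Fech moves up.

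The bases before the transcription start are shown for Blvra, Alad and Urod, because these 3 were called up against WT in each model. Promoter sequences from RefSeq (GRCm38.p6) were matched for 7 of the 9 members, as 10 windows of 250 bases before to 50 after a start. Each line gives 150 bases up to the start, 5′ to 3′ on the gene's strand, at chr2:127070507-127070656 (plus strand), chr4:62520064-62520213 (minus strand) and chr4:116994414-116994563 (minus strand). Capitals mark a match to TGACNNNGC (the core of the antioxidant response element), CACGTG (an E-box), GGGCGG (the GC box) or CCAAT, on either strand.
Blvra: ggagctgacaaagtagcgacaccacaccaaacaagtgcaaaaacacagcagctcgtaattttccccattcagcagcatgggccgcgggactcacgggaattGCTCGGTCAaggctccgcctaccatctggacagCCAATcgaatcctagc
Alad: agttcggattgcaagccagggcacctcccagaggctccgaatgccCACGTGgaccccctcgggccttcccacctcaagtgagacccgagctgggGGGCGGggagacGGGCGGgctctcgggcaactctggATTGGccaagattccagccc
Urod: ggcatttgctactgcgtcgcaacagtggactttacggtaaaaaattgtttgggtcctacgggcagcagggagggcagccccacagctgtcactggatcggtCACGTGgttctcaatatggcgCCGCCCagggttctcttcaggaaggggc
Blvra alone among the 7 members held TGACNNNGC, on the opposite strand with its first base at position -49, and 12.4% of all 32851 promoter windows hold it. CACGTG was in 3 of the 10 windows, those of Alad (at -105 from the start shown) and Urod (at -49), against 7.15% of all windows. GGGCGG was in 6 of the 10 windows (5 members) and CCAAT in 5 (4 members), and these are in 35.7% and 37.4% of all windows. TATAAA, held by 13.6% of windows, was in none of the 10. No 2 matches overlap in the bases shown. A match is a description of letters and not a measured site.

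A wider list of 41 heme genes, all of them tested, was counted beside the members. In Spns1 KO 8 rose and 3 fell, and in FeO 13 rose and 7 fell. Their median log2 fold change was 0.05 for Spns1 KO and 0.17 for FeO. The rises were thus 8 of 41 and 13 of 41 where 14.0% and 22.4% of all genes rose. The falls were 3 of 41 and 7 of 41 where 7.55% and 19.7% of all genes fell. The lists below are parts of these 41 genes, and the same shares of all genes apply to their counts. Without Spns1 KO library 4 the count of rises in Spns1 KO was 13. Without library 1, 2 or 3 of that group it was 3, or 4 without WT library 3.

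Among the other synthesis enzymes, Uros, uroporphyrinogen III synthase, rose from 8.44 ± 1.07 CPM (SD, n = 5) in WT to 12.3 ± 3.12 in Spns1 KO (log2 fold change 0.55 ± 0.18 SE, adjusted p = 0.0429) and 15.1 ± 1.24 in FeO (0.84 ± 0.19, adjusted p = 0.00246). Alas2, the erythroid form of the first enzyme, was barely detected (0.16 ± 0.11 CPM in WT, 0.65 ± 0.16 in Spns1 KO, 0.72 ± 0.73 in FeO) and was called up in both. Its highest level, 1.80 CPM, was in FeO library 4, which also had the highest summed erythroid markers. With the length and GC trend removed, Uros and Alas2 kept their calls in FeO and lost them in Spns1 KO.

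Of 8 genes on the mitochondrial side (glycine and iron carriers, porphyrin transporters and proteases that act on ALAS1), 1 rose in each model. This was Tmem14c, which moves protoporphyrinogen into the matrix, at 20.7 ± 3.82 CPM in WT, 37.9 ± 11.6 in Spns1 KO (log2 fold change 0.88, adjusted p = 0.0196) and 57.9 ± 19.2 in FeO (1.49, adjusted p = 0.000617). Lonp1, the mitochondrial protease that degrades ALAS1 in the presence of heme, was 0.88 ± 0.19 higher on the log2 scale in Spns1 KO than in FeO (adjusted p = 0.00847), with neither model called against WT. None of the 3 enzymes of heme a and c was called by edgeR, DESeq2 or limma-voom, although at an unadjusted p under 0.05 Cox15 was higher and Cox10 lower in Spns1 KO.

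Heme traffic, among the longest of these lists, held the most calls. In Spns1 KO 5 of 9 were higher and 1 lower, where 14.0% of all genes were called higher and 7.55% lower. In FeO 6 were higher and 1 lower, where 22.4% of all genes were called higher and 19.7% lower. Slc46a1, a proton-coupled folate transporter that also carries heme, rose from 4.77 ± 0.405 CPM in WT to 12.2 ± 2.15 in Spns1 KO (log2 fold change 1.36 ± 0.18, adjusted p = 0.000411) and 13.5 ± 3.21 in FeO (1.497 ± 0.18, adjusted p = 0.000313). Slc48a1 (HRG1), which lets heme out of endosomes and lysosomes, rose from 91.3 ± 10.4 CPM to 144 ± 38.8 (0.66, adjusted p = 0.021) and 148 ± 24.7 (0.69, adjusted p = 0.00861). Flvcr1, the plasma membrane heme exporter and choline transporter, fell from 123 ± 16.3 CPM in WT to 54.2 ± 22.9 in Spns1 KO (-1.18 ± 0.23, adjusted p = 0.00284) and 74.0 ± 16.7 in FeO (-0.73 ± 0.23, adjusted p = 0.018), with every library of both models below every WT library. Among Spns1 KO libraries, number 4, at 88.2 CPM, was again the nearest to WT. Pgrmc1, a heme-binding partner of ferrochelatase, rose in Spns1 KO (0.83, adjusted p = 0.0153) and FeO (1.28, adjusted p = 0.000686), as did the heme-binding protein Hebp1 (1.06, adjusted p = 0.00986, and 1.24, adjusted p = 0.00198). Abcg2, an exporter of porphyrins and urate, rose in Spns1 KO (0.91, adjusted p = 0.0188) and was 0.32 in FeO without a call (adjusted p = 0.308).

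Pgrmc2, a chaperone of labile heme, rose in FeO (1.15, adjusted p = 0.00073) and was lower in Spns1 KO than in FeO by -0.73 ± 0.21 on the log2 scale (adjusted p = 0.0331). Hebp2, a relative of Hebp1, was low, at 1.05 ± 0.388 CPM in WT and 1.01 ± 0.207 in Spns1 KO. It rose to 3.15 ± 1.18 CPM in FeO (1.59 ± 0.31, adjusted p = 0.00131) and was lower in Spns1 KO than in FeO by -1.63 ± 0.33 (adjusted p = 0.00756).

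Among the other breakdown genes, Hmox2, the constitutive heme oxygenase that catalyses the same step as Hmox1, rose in FeO from 29.2 ± 4.65 to 54.4 ± 7.28 CPM (log2 fold change 0.90 ± 0.17, adjusted p = 0.00107) and was 0.39 ± 0.17 higher in Spns1 KO without a call (adjusted p = 0.112). The latter was 0.53 and called without Spns1 KO library 4 (adjusted p = 0.0139). Hmox2 did not overlap between FeO and WT libraries. Ugt1a1, which conjugates bilirubin and shares its last exons with other Ugt1a genes, fell in FeO from 51.9 ± 1.76 to 20.7 ± 13.5 CPM (-1.33 ± 0.30, adjusted p = 0.00291). In Spns1 KO it was 34.0 ± 7.09 CPM without a call (-0.61 ± 0.29, adjusted p = 0.141), with every library below WT. There it was called in the fit on 2 groups only (-0.59, adjusted p = 0.0121) and without FeO library 2 (adjusted p = 0.0203). Abcc2, which exports conjugated bilirubin, was 1526 ± 572 CPM in Spns1 KO and 493 ± 168 in FeO, a log2 difference of 1.63 ± 0.34 between the models (adjusted p = 0.00813), with WT between them at 827 ± 305. Against WT, edgeR gave 0.88 in Spns1 KO (adjusted p = 0.0517) and -0.75 in FeO (adjusted p = 0.066), without a call. DESeq2 called both (0.89, adjusted p = 0.0198, and -0.73, adjusted p = 0.0447).

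Of 5 scavenging genes, 1 was called against WT. Ambp, the precursor of the heme-binding alpha-1-microglobulin, fell in FeO from 20.7 ± 5.41 to 8.50 ± 4.24 CPM (-1.28 ± 0.39, adjusted p = 0.0157). Lrp1, the receptor for hemopexin-bound heme, was 0.86 ± 0.25 higher on the log2 scale in Spns1 KO than in FeO (adjusted p = 0.0337). Hpx, hemopexin, was at 0.584 to 0.672 CPM on average in the 3 groups.

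Among 9 regulators, 2 fell in Spns1 KO, where 7.55% of all genes fell. In FeO 2 rose and 4 fell, where 22.4% of all genes rose and 19.7% fell. Bach1, the heme-sensing repressor of Hmox1, fell in FeO from 129.5 ± 14.9 to 61.7 ± 27.4 CPM (-1.07 ± 0.25, adjusted p = 0.00371) and was 97.5 ± 14.6 CPM in Spns1 KO (-0.41 ± 0.25, adjusted p = 0.239). Its partners Mafk (-1.35, adjusted p = 0.019) and Mafg (-0.96, adjusted p = 0.00418) fell in FeO, and Maff fell in Spns1 KO (-1.32, adjusted p = 0.0474). Mafg was higher in Spns1 KO than in FeO (0.78, adjusted p = 0.0405). Ppargc1a (PGC-1alpha), a coactivator of Alas1 transcription and mitochondrial genes, fell in both (-0.87, adjusted p = 0.00615, and -0.93, adjusted p = 0.00195). Keap1, which holds NRF2 in the cytosol, rose in FeO (0.56, adjusted p = 0.00719). Eif2ak1, the heme-regulated kinase that slows translation when heme is scarce, also rose in FeO (0.60, adjusted p = 0.0119) and was lower in Spns1 KO than in FeO by -0.62 ± 0.18 (adjusted p = 0.0359). Nfe2l2, which encodes NRF2, was not called (-0.40 in Spns1 KO, adjusted p = 0.0605, and -0.05 in FeO, adjusted p = 0.793).

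**Figure D5:**
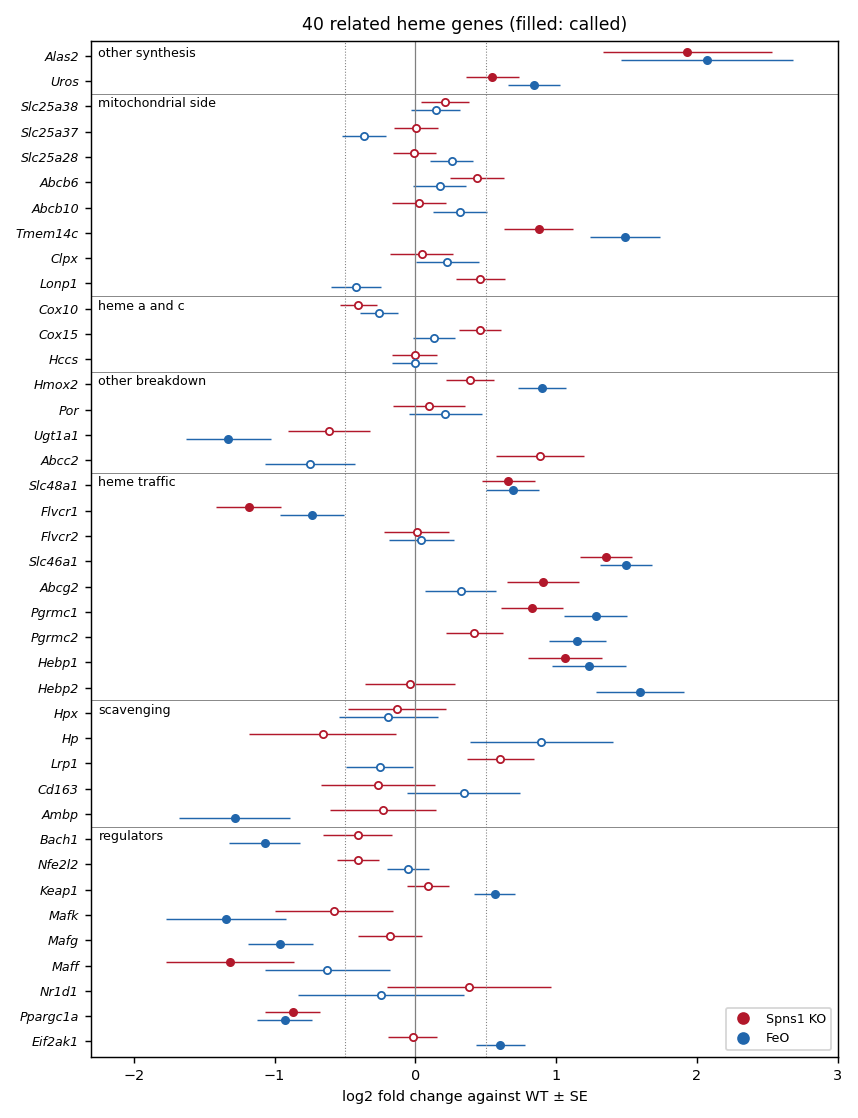
Log2 fold changes against WT with standard errors for 40 of the 41 further heme genes in Spns1 KO (red) and FeO (blue), grouped by role, filled where called; dotted lines mark the limit of 0.5. Slc46a1 and Hebp1 are to the right and Flvcr1 and Ppargc1a to the left in both models.

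Other targets of NRF2 were read beside Hmox1. Of 8 such genes, 3 rose and 1 fell under Spns1 KO while 3 rose under iron loading. Of all genes, 14.0% rose and 7.55% fell in Spns1 KO, and 22.4% rose and 19.7% fell in FeO. Fth1, the ferritin heavy chain that stores the iron freed from heme, rose from 650.5 ± 136 CPM in WT to 1635 ± 554 in Spns1 KO (log2 fold change 1.33 ± 0.26, adjusted p = 0.00263) and 1975 ± 505 in FeO (1.60 ± 0.26, adjusted p = 0.000551). Nqo1, a quinone reductase, rose from 53.2 ± 4.50 CPM to 109.9 ± 48.1 (1.05, adjusted p = 0.0254) and 196 ± 76.9 (1.88, adjusted p = 0.00063). Gclm, of glutathione synthesis, rose in Spns1 KO (0.85, adjusted p = 0.015). In FeO Gclm was 0.56 without a call by edgeR (adjusted p = 0.0517), while DESeq2 called it (0.59, adjusted p = 0.0394). Gclm did not pass between Spns1 KO and FeO (0.28 ± 0.24, edgeR adjusted p = 0.43). Sulfiredoxin Srxn1 rose in FeO (0.90, adjusted p = 0.0277). Slc7a11, the cystine importer, fell in Spns1 KO from 9.45 ± 2.65 to 2.71 ± 1.22 CPM (-1.80 ± 0.33, adjusted p = 0.00172). Srxn1 and Slc7a11 were lower in Spns1 KO than in FeO (-1.13, adjusted p = 0.0348, and -1.48, adjusted p = 0.0116). In Spns1 KO library 2, with the very high Hmox1, Nqo1 was 134 CPM and Fth1 2137 CPM, against 43.3 to 154 and 892 to 1963 CPM in the other 3.

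How firmly these related and NRF2 target genes were called varied. In Spns1 KO, Slc46a1, Hebp1, Flvcr1, Ppargc1a, Fth1 and Slc7a11 stayed called whichever 1 library was left out. Pgrmc1 was lost without Spns1 KO library 3 (adjusted p = 0.0673), Gclm without 2 or 3 (up to 0.0586) and Abcg2 without 1, 2 or 3 (up to 0.0711). Slc48a1 (up to 0.0854) and Tmem14c (up to 0.0732) were lost without Spns1 KO 1, 2 or 3 or WT 3, and Nqo1 without those 3 or WT 2 or 3 (up to 0.101). The calls of Alas2 (without Spns1 KO 1, 2 or 3 or WT 3, 4 or 5, up to 0.0804), Uros (without Spns1 KO 1, 2 or 3 or WT 1, 2, 3 or 5, up to 0.156) and Maff (in 10 of 13 such fits, up to 0.136) were the weakest. Without Spns1 KO library 4, calls were gained by Hmox2, Pgrmc2 (0.56, adjusted p = 0.036), Abcb6, a porphyrin transporter (0.57, adjusted p = 0.0223), Abcc2 (1.08, adjusted p = 0.0136), Txnrd1, thioredoxin reductase (0.55, adjusted p = 0.0492), and, downward, Mafk (-1.14, adjusted p = 0.0314).

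In FeO, Alas2 was lost without FeO library 4 (1.13, adjusted p = 0.0957), Eif2ak1 without 3 (0.49, under the fold limit), Flvcr1 without 2 or 3 (adjusted p up to 0.0559), Mafk without 1 or 3 (up to 0.0646) and Srxn1 without FeO 1 or WT 1, 2, 3 or 4 (up to 0.168). The other FeO calls given here held in all 13 such fits. Between Spns1 KO and FeO, Lonp1, Abcc2, Hebp2 and Slc7a11 held in all of them. Pgrmc2 (up to 0.111), Eif2ak1 (up to 0.0993) and Srxn1 (up to 0.141) were lost without Spns1 KO 1, 2 or 4 or FeO 1 or 3, Lrp1 without Spns1 KO 1 or 4 or FeO 2 or 3 (up to 0.0904), and Mafg in 9 of 13 fits (up to 0.118). Flvcr1 (-0.79, adjusted p = 0.0175) and Maff (-1.45, adjusted p = 0.0321) became lower in Spns1 KO than in FeO without Spns1 KO library 4.

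With the length and GC trend removed, Flvcr1, Bach1 and Ppargc1a lost their calls in FeO. Tmem14c, Slc48a1, Hebp1 and Nqo1 (0.80, adjusted p = 0.0718) lost theirs in Spns1 KO, and Lrp1 lost its call between the models (0.38, adjusted p = 0.211). The same correction added calls, namely Cox15 (0.69, adjusted p = 0.00576), Abcc2 (1.34, adjusted p = 0.01) and Lrp1 (0.85, adjusted p = 0.00923), each higher in Spns1 KO than in WT. It also added Abcg2 (0.92, adjusted p = 0.0183) and Gclm (1.02, adjusted p = 0.00673) in FeO, and Keap1 lower in Spns1 KO than in FeO (-0.58, adjusted p = 0.0242).

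Markers of other cells that handle heme moved with the groups. Over all genes tested, 14.0% rose and 7.55% fell in Spns1 KO, and 22.4% rose and 19.7% fell in FeO. Of 7 erythroid markers tested of 9 listed, 6 rose in Spns1 KO and 5 in FeO, among them the globin Hba-a1 and Slc4a1, the red cell anion exchanger with a kidney form (log2 fold change 1.43, adjusted p = 0.0103, and 1.72, adjusted p = 0.00173). Summed erythroid levels were higher in every library of both models than in WT. In FeO library 1, however, Slc4a1 made up 38.3 of the summed 64.8 CPM. Hbb-bs there, at 12.9 CPM, lay within the WT range of 4.84 to 19.1. Of 8 macrophage markers tested of 10 listed, 1 rose in Spns1 KO (C1qc) and 5 in FeO (Adgre1, Csf1r, C1qa, C1qb and C1qc). Their sums were 68.5 to 87.6 CPM in Spns1 KO, 51.6 to 62.1 in WT and 80.5 to 103.9 in FeO, without overlap with WT, and Vsig4 and Cd5l were at or near 0. Proximal tubule markers rose for 6 of 10 in Spns1 KO, and 2 rose and 1 fell in FeO. The loop and distal list had 1 of 5 up in each model, the endothelial and podocyte list 3 of 5 higher in Spns1 KO, with 2 higher and 1 lower in FeO, and the tubule injury list none of 4 called in Spns1 KO by edgeR (1, Havcr1, lower at an unadjusted p under 0.05 and by DESeq2, none by limma-voom) and 1 up in FeO (Lcn2). The part of these cells in the heme gene results was not tested.

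The genes whose log2 CPM followed Hmox1 most closely over the 13 libraries, of 12208 that averaged 100 counts or more, were Gsta1, a glutathione transferase (Pearson r = 0.839), Pum3 (0.835), Rpp25l (0.798), Dok1 (0.793) and Tcf19 (0.793). Without Spns1 KO library 2 these were 0.735 to 0.811 over 12 libraries. For Alas1 they were Pim3, a kinase (0.938), Klhl26 (0.927), Klhl25 (0.925), Chac1, which cleaves glutathione (0.914), and Fzd8 (0.899). The libraries differ in group, depth and cell makeup, which all genes share, and these values are a description without a test.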

How the data were processed

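Tagged RNA of 13 kidney libraries was measured by poly-A RNA-seq. Per the labels, the deposited values are estimated counts per gene, made by the authors with bcl2fastq 2.19 and kallisto 0.44.0 on GRCm38, with DESeq2 also named in the submitters' processing notes. The table's own name also gives kallisto, while the study's methods describe STAR and HTSeq. Kallisto divides reads between transcripts that share sequence, and strand use is not given in the sources used here. Transcript lengths came from GENCODE M21, where 97.7% of 35013 symbols had a gene model.

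Estimated counts, whole numbers as deposited, were tested with edgeR 4.0.16 (R 4.3.3, TMM scaling, filterByExpr, quasi-likelihood fit on all 13 libraries, 2-sided, Benjamini-Hochberg adjustment over 16468 genes). Calls needed an adjusted p under 0.05 and a log2 fold change beyond 0.5. Alternatives used DESeq2 1.42.0, limma-voom 3.58.1, other scalings, no filter, 2 groups only, a test against the fold limit (glmTreat), a replicate block, a gam trend on length and GC (mgcv 1.9.3), a robust fit added after 1 Hmox1 library was seen to stand apart, and each library left out. The edgeR, glmTreat, DESeq2, limma-voom, replicate block and trend fits were tested on simulated data. No pair of libraries within a group agreed within sampling noise. WT libraries 1 and 2 were by far the most alike, with a mean chi-square per gene of 7.89. Other pairs within a group had 37.2 to 291.6. Both were counted as separate libraries in the fits. Library totals of 23068023 to 71296474 limit the precision of low genes.

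Members and gene lists were chosen with earlier results of these data known. Named genes were all 9 members, the related heme and NRF2 target genes called in Spns1 KO or FeO against WT, and the 5 genes with the highest Pearson r of log2 CPM (prior count 2) with Hmox1 and with Alas1 among those averaging at least 100 counts. Outside this rule, Lonp1, Abcc2 and Lrp1 (called between the models), Abcb6 and Txnrd1 (called without 1 library), Cox10, Cox15, Angptl7, Hbb-bs, Hpx, Nfe2l2 and the marker genes given with values were named after their values were seen. Values of 1 related heme gene and 1 marker gene are not reported here, though both stay in the list counts and sums.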

Additional observations from a re-analysis of the deposited data

Results flagged for a closer look

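In 27 groups of 4 or 5 libraries screened for a library far from the others, 3 passed Dixon's limit for 4 or 5 libraries, which chance passes in about 1 in 20 groups. The measure is the gap to the nearest library divided by the range of the group. For Hmox1 in Spns1 KO, library 2 (952 CPM against 46.1 to 80.2 in the others) had a ratio of 0.962. For Alas1 in FeO, library 2 (214 CPM against 101 to 103) had 0.985. For Fech in Spns1 KO, library 4 (116 CPM against 129 to 130.3) had 0.93.

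The effects of both models on Fech differed when tested directly, with a log2 fold change of 0.461 for Spns1 KO against FeO (edgeR adjusted p = 0.0283). All 4 Spns1 KO libraries were above the WT mean of 113 CPM and all 4 FeO libraries below it. The size is under the limit of 0.5 that a call needs, and it was 0.29 (adjusted p = 0.124) with the length and GC trend removed.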

How the results depend on the processing

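The members called up were 4 in each model. With glmTreat they were 1 in Spns1 KO and with the length and GC trend removed 2 in Spns1 KO and 2 in FeO. Leaving out 1 library at a time gave 3 to 6 members up in Spns1 KO (6 without Spns1 KO library 4) and 3 to 4 in FeO, 0 down in Spns1 KO and 0 to 1 down in FeO (1, Alas1, without FeO library 2), and 0 to 2 up and 0 down between Spns1 KO and FeO (2 without Spns1 KO library 4). Of the related heme genes, 8 rose and 3 fell in Spns1 KO, where glmTreat gave 1 and 1, the replicate block 5 up, library totals alone 5 down, and leave-one-out fits 3 to 13 up and 2 to 4 down. In FeO 13 rose and 7 fell, where glmTreat gave 8 and 4, the trend removal 4 down, and leave-one-out fits 11 to 13 up and 5 to 8 down. Scaling by library totals alone moved the median log2 fold change of all genes in Spns1 KO from -0.05 to -0.18, and the calls from 2307 up and 1243 down to 1739 up and 2086 down.

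None of the fold changes that turned direction was called before or after. Between Spns1 KO and FeO, Hmox1 was -0.15 by limma-voom and -0.0758 with the replicate block, and ran from -1.44 (without Spns1 KO library 2) to 1.21 in leave-one-out fits. Urod was -0.0427 by library totals and -0.0663 (without FeO library 2) to 0.105 in leave-one-out fits, where Alad ran from -0.0521 (without Spns1 KO library 1) to 0.382 and Alas1 from -0.0797 (without Spns1 KO library 4) to 0.604. Against WT, Hmox1 in Spns1 KO ran from -0.67 (without Spns1 KO library 2) to 2.38, and with the trend removed Ppox was -0.0600 and Fech 0.22 in FeO. The cause was not tested. Of 297 other refits of single members, 277 kept direction and call, and of 351 leave-one-out refits 327 did.

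Replicate numbers did not pair the libraries, with same-number correlations of -0.296 to 0.256 and 4 of 12 above 0.1. The replicate block called Blvrb in Spns1 KO as well (0.74, adjusted p = 0.032). Low counts limit Alas2 and Hebp2 more than the members.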

Other observations

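Library 4 labelled Spns1 KO lay nearer to WT than the rest of its group for several genes. Its Spns1 level, like that of library 2, was within the WT range. Ferritin Fth1 was 892 CPM there and 1547 to 2137 in the other 3, with WT at 485 to 858. Nqo1 was 43.3 CPM there, below the lowest WT library (46.5), and 108 to 154 in the others. Tmem14c lay inside the WT range there and was 40.5 to 46.7 CPM in the others. Alad, Blvrb and Cpox lay inside the WT range in that library. Ppox went the other way, with its highest level of all 13 libraries there, and so did Alas1. Slc46a1, at 9.29 CPM, stayed above all WT libraries, which reached 5.30.

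In WT, the 2 libraries with the lowest Hmox1 (3 and 4, at 30.0 and 26.2 CPM) also had the lowest Blvrb and Urod of the 5 controls. WT library 5, with the highest Hmox1 (260.0 CPM), had the highest Fth1 (858 CPM) and the lowest Alad and Fech of that group.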
